A study of Mus musculus with 2 samples.

Results

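The heat shock proteins and chaperones were described as a family of genes in neural stem cells of young and aged mice. Members were chosen by symbol, as genes of the HSPA, HSPB, HSP90, DNAJ and CCT families plus HSPD1, HSPE1, HSPH1 and TCP1. The naming rule caught 83 genes, of which 68 of the 27998 genes in the matrices had at least 100 UMIs (unique molecular identifiers, 1 per captured transcript molecule) over both libraries. Just inside that limit lay Hspa1a with 137 UMIs, Hspb1 with 139 and Dnajc6 with 156, and just outside it lay Hspb3 with 94, Hspa1b with 80 and Cct6b with 72.

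The cells were primary neural stem cells from the subventricular zone of the brain, the niche along the lateral ventricles. They came from young mice of 2 months and from aged mice of 15 to 18 months, all of the C57BL/6 strain. Tissue of 5 mice was pooled for each age, dissociated with a tissue dissociation kit and kept in proliferation medium before 3' single-cell RNA sequencing, and the labels describe the same protocol for both ages without giving the time in medium. Each age is 1 library of pooled mice. No spread between mice can be measured, no test between the ages is possible, and every interval below is a 95% interval for counting error only.

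Chaperones bind unfolded stretches of other proteins and let them fold, cross membranes or be handed to degradation. HSP70 proteins do so in cycles of ATP use that J-proteins (the DNAJ families) start and nucleotide exchange factors of the HSP110 family end, HSP90 acts later on client proteins such as kinases, and the ring-shaped TRiC/CCT complex and the mitochondrial HSP60 and HSP10 pair fold proteins inside a cavity. Many of these genes are expressed in every growing cell, while a smaller set, led by Hspa1a, is switched on by the heat shock factor HSF1 under stress, and the chaperones of the endoplasmic reticulum (ER) are induced by the unfolded protein response.

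After filtering, 2639 young and 2527 aged cells were kept, with a median of 22951 and 23745 UMIs per cell and 58891207 and 60140272 UMIs in all. The matrices held 5151 and 4731 barcodes, of which 1859 and 1575 had over 10% mitochondrial UMIs and 951 and 742 had under 1000 genes. The libraries shared 4 barcodes. Clustering, done without the member genes, gave 11 clusters, 9 of them with a median depth of at least 1/3 of their library's, here called deep. By their markers these were mid S phase-like (clusters 1 and 6), S phase entry-like (cluster 2, whose 10 leading genes also held Cspg4 and Lhfpl3, markers of oligodendrocyte precursors), integrated stress response-like (cluster 3, led by Nupr1, Ddit3 and Atf5), G2/M-like (clusters 4, 8 and 9) and astrocyte or quiescent stem cell-like (cluster 7), with cluster 5 unnamed and led by Tead2, Gng11 and Anxa3. Clusters 6 and 9 were mixed too, each with 5 of the 18 genes on the list that named cluster 7 raised. Cluster 5 had 4 of these genes raised, and clusters 1, 2, 3, 4 and 8 had 0. Median depth over the deep clusters ran from 16456 to 34387 UMIs in young cells and from 19272 to 38773 in aged cells. Levels are UMIs of a gene per 1000000 UMIs (CPM). In the deep clusters the summed markers of other cell types reached at most 0.253 CPM for 8 T cell genes, 0.392 CPM for 5 erythrocyte genes, 4.09 CPM for 9 endothelial genes, 18.1 CPM for 9 pericyte genes, 26.3 CPM for 12 microglia or macrophage genes, 30.6 CPM for 10 ependymal genes, 59.8 CPM for 10 genes of mature neurons and 107 CPM for 9 oligodendrocyte genes. Higher were the neuroblast list (18 genes, up to 386 CPM) and the oligodendrocyte precursor list (10 genes, up to 1858 CPM).

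Promoter stretches are shown for some of the members that the results name. They come from RefSeq on GRCm38.p6, read 5' to 3' on the strand of the gene, with motif matches in capitals. Of the 68 members, 56 had at least 1 window of 250 bases before to 50 bases after a start site, 75 windows in all. The HSF1 type of site, a pair of inverted GAA units (GAANNTTC or TTCNNGAA, each its own reverse complement), was in 22.7% of these windows and in 15.1% of all 32851 windows. The form with 3 units (GAANNTTC followed by NNGAA, both strands), which contains the pair, was in 8% of member windows and 0.603% of all windows, at Hspd1, Hspe1, Hsph1 and Dnajb6. These 6 member windows are not 6 separate sites, because windows can overlap. Those of Hspd1 and Hspe1 share 1 stretch, and both windows of Hsph1 share 1 match. No pair was found at Dnajb1. The motifs CARE (TGATGNAA) and CHR (TTTGAA), both strands, were also searched. CARE was in 1.33% of member windows and 3.97% of all windows, and CHR in 5.33 and 17.9%. Dnajb2 had no CARE match and Hspa4l no CHR match.

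The 250 bases before the start of Hspa1a, the stress-inducible HSP70 that was nearly undetected in these cells (chr17:34972157-34972406, minus strand), hold 1 pair.
Hspa1a: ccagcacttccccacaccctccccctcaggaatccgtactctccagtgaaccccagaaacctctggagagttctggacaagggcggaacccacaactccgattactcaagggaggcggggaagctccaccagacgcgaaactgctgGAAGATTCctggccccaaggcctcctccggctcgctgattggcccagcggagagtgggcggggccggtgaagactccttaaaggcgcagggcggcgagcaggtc

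Hspd1 and Hspe1, which encode the HSP60 and HSP10 pair, lie head to head on chromosome 1. The 215 bases between the Hspe1 start and the farther Hspd1 start (chr1:55087933-55088147, strand of Hspe1) hold 3 overlapping pairs, and the 2 genes were among the most correlated members across cells.
Hspe1: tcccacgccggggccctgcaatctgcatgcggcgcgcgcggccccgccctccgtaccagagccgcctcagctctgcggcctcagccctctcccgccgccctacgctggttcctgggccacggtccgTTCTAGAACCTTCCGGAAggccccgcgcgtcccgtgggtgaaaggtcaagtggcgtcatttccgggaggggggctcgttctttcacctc

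The ER stress element (CCAAT and CCACG with 9 bases of any kind between them, both strands) was in 3 of the member windows, 4%, against 0.119% of all windows. It was found at Hspa5, Hsp90b1 and Dnajc3, which encode BiP, GRP94 and p58IPK of the ER. The 250 bases before the Hspa5 start (chr2:34771840-34772089, plus strand) are followed by the matches with 10 bases either side at Hsp90b1 (chr10:86705628-86705666 and chr10:86705523-86705561, minus strand, the latter match on the opposite strand) and at Dnajc3 (chr14:118937817-118937855, plus strand).
Hspa5: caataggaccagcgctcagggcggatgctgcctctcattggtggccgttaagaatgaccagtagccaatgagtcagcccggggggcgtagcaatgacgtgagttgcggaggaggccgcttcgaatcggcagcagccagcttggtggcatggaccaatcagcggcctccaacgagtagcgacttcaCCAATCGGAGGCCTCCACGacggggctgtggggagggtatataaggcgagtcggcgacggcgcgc
Hsp90b1, farther match: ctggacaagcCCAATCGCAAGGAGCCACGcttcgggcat
Hsp90b1, nearer match: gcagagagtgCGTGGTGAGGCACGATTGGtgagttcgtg
Dnajc3: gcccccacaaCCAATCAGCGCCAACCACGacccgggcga

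Dnajc9, the member with the widest range over the deep clusters, had 1 match to an E2F site (TTTGGCGC or TTTCCCGC, both strands), on the opposite strand just after its start (chr14:20388861-20388881, minus strand). This motif was in 5.33% of member windows, at Cct3, Dnajb9, Dnajc19 and Dnajc9, and in 1.56% of all windows.
Dnajc9: agttatttggGCGGGAAAagg

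The members together took 1.71% of all UMIs of kept cells of the young library and 1.67% of the aged. Because 3' tags give 1 UMI per captured transcript whatever its length, CPM can be set side by side between genes, although capture may differ. How reads shared with near-identical copies or pseudogenes (of Hspa1a, Hspa8, Hsp90ab1, Hspd1 and Hspe1, for example) were counted was not given in the sources used here. In the order of levels, 5 genes held 53.8% of the members' UMIs in young and 52.9% in aged cells. Hsp90ab1, the constitutive cytosolic HSP90, stood at 3466 CPM in the young and 3271 CPM in the aged library. Hspa8, the constitutive cytosolic HSP70, stood at 2639.6 and 2464 CPM. Hsp90aa1, the more inducible HSP90, had 1449.7 and 1435 CPM, Hspd1 had 881 and 882 CPM, and Hspe1 had 757 and 782 CPM.

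The 7 TRiC/CCT subunit genes measured lay close together, from 285 CPM (Cct4) to 477 CPM (Cct2) in the young and from 274 CPM (Cct4) to 457 CPM (Cct8) in the aged library. Cct6a was not analysed here. In the ER, Hsp90b1 (GRP94) had 606 and 625 CPM and Hspa5 (BiP) 479 and 499 CPM, and their J-protein partners ranged from Dnajb11 at 124 and 117 CPM down to Dnajb9 at 12.4 and 13.4 CPM. Hspa9, the HSP70 of the mitochondrial matrix, had 308 and 343 CPM. Among cytosolic J-proteins Dnaja1, the main class A partner of HSP70, led with 614 and 601 CPM, ahead of Dnaja2 with 249 and 238 CPM and of Dnajc9, a histone-binding J-protein, with 195 and 178 CPM. Of the HSP110 type, Hspa4 had 318 and 325 CPM and Hsph1 100.2 and 90.4 CPM.

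The stress-inducible HSP70 gene Hspa1a and 2 small heat shock protein genes were at the bottom of the range. Hspa1a had 38 UMIs in young and 30 in aged cells (0.645 and 0.499 CPM), with never more than 1 UMI in a cell. With each cell thinned to 5000 UMIs, which left out 343 young and 263 aged cells, 7 of 2296 young cells (0.305%, exact interval 0.123 to 0.627%) and 5 of 2264 aged cells (0.221%, 0.0717 to 0.515%) held an Hspa1a UMI. Without thinning the shares were 1.44 and 1.19% of cells. Its near-identical neighbour Hspa1b, outside the members, had 18 and 24 UMIs. Hspb1, the small heat shock protein HSP27, had 26 and 31 UMIs, 4 of the latter in 1 cell, and Hspb8, which works with the cochaperone Bag3, had 67 and 47. No cell type that should lack these genes was among the deep clusters, so the background from free RNA was not measured. Hsf1 itself was measured at 15.6 and 16.7 CPM. Other heat-inducible members were readily seen. Dnajb1, a class B J-protein that works with HSP70, had 45.4 and 46.6 CPM, and Hsph1 had a UMI in 37.9% of thinned young cells and 34.8% of thinned aged cells.

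**Figure D1:**
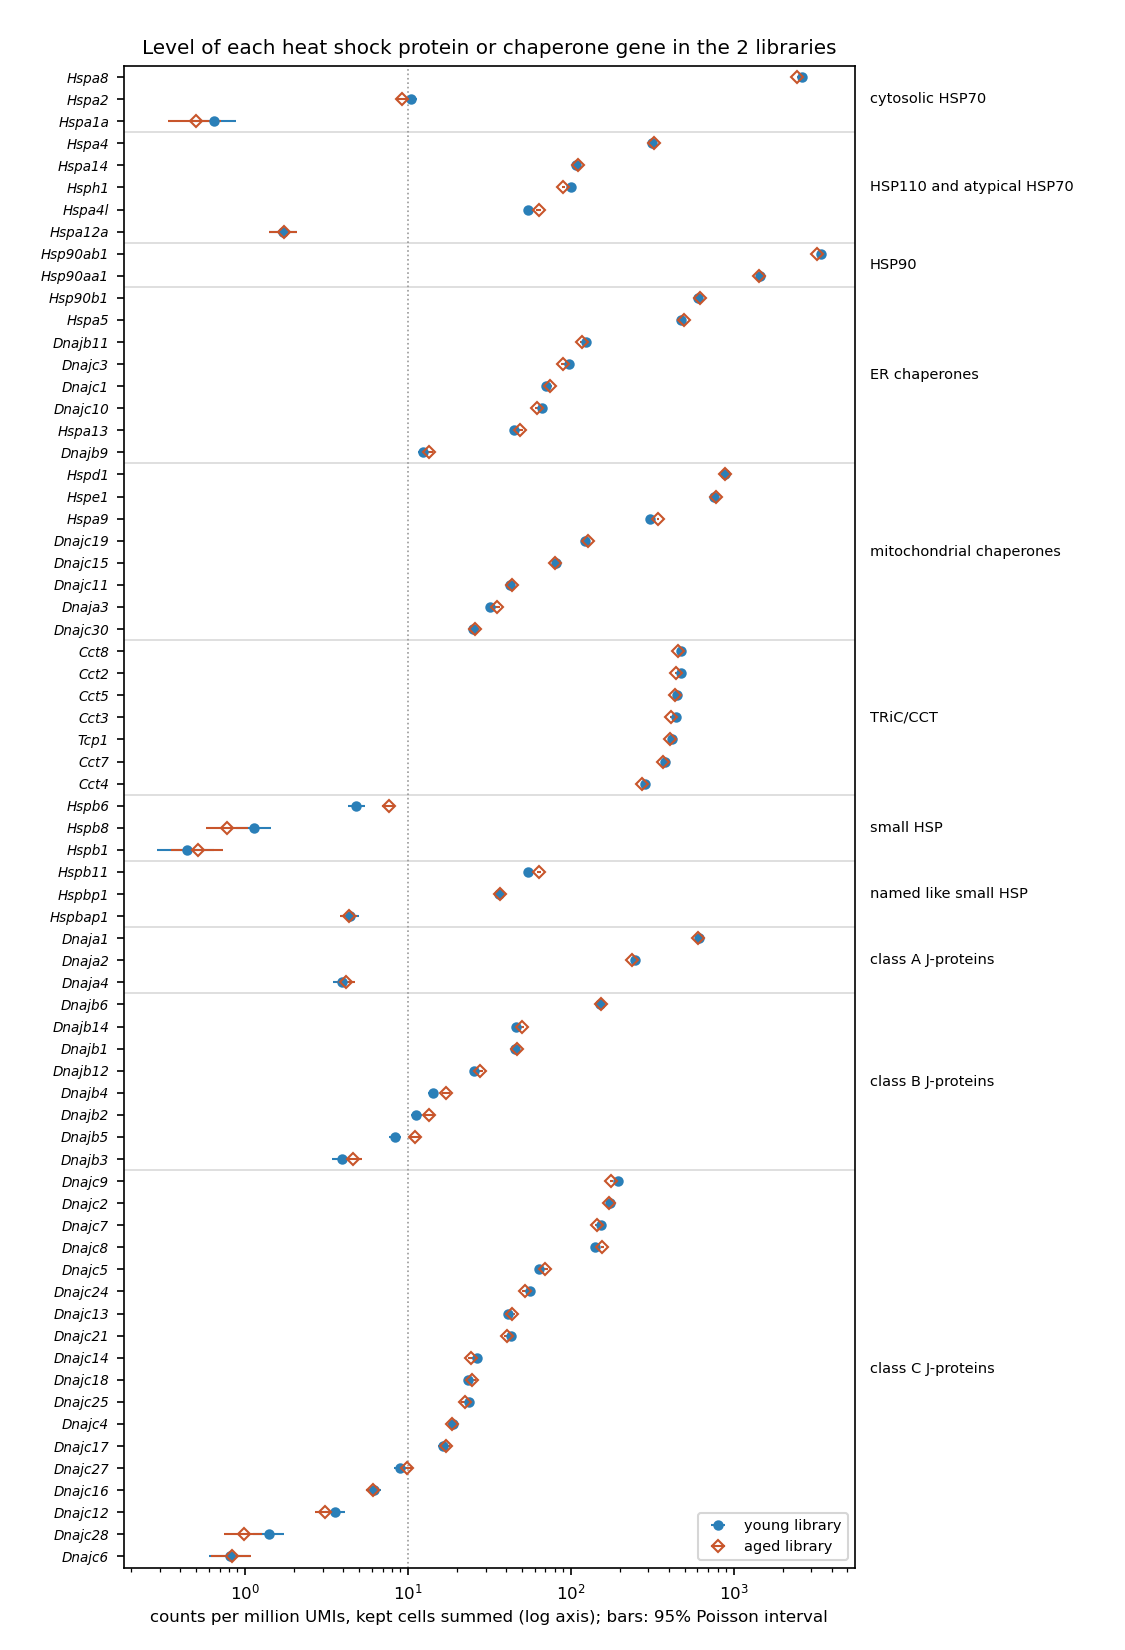
CPM of each of the 68 members, summed over kept cells, in the young (filled circles) and aged library (open diamonds), on a log axis and grouped by role, with 95% Poisson intervals; the dotted line marks the 10 CPM needed for a comparison. Hsp90ab1 and Hspa8 are the highest and Hspa1a, Hspb1, Hspb8 and Dnajc6 near 1 CPM or below, with the paired symbols close together for nearly every gene.

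Levels in the aged library were close to those in the young. Of the 55 members that reached 10 CPM in 1 library or both, 29 were higher and 26 lower in the aged library on the scale of log2(CPM + 1), with a median log2 ratio of 0.005 and a range from -0.18 (Hspa2) to 0.38 (Dnajb5). Of all 8331 genes compared 4617 were higher and 3714 lower, and the median was 0.02. On that scale 1 member, the class B J-protein Dnajb5, was at least 25% higher in aged cells, which is 1.82% of the members against 4.02% of all genes compared. No member was at least 20% lower, the same ratio in the other direction, against 3.36% of all genes. None reached 1.5-fold, which 0.804% of all genes did upward and 0.756% downward. Dnajb5 had 492 UMIs (8.35 CPM) in the young and 670 (11.1 CPM) in the aged library, a ratio of 1.33 (interval 1.19 to 1.5), and was higher in the aged library in 8 of 9 deep clusters. It reached 10 CPM only in the aged library, and Hspa2 (10.5 and 9.20 CPM) only in the young. Both ends of the range are thus members that entered the comparison through the library where they were higher.

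Among the remaining 13 members, below 10 CPM in both libraries, Hspb6 (HSP20) had the largest difference. It had 285 UMIs (4.84 CPM) in the young and 461 (7.67 CPM) in the aged library, a ratio of 1.58 (1.36 to 1.84). It was higher in the aged library in 8 of 9 deep clusters, from a log2 ratio of 0.28 in cluster 3 to 0.996 in cluster 8, with 7.62 and 7.59 CPM in cluster 9. Outside the members Hspb3 had 5 UMIs in young and 40 in aged cells.

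Role groups differed from each other by small amounts. All 7 TRiC/CCT genes were lower in the aged library, by a log2 ratio between -0.03 (Cct5) and -0.10 (Cct2), and their sum was 2919.7 CPM in the young and 2799 CPM in the aged library (ratio 0.959, 0.952 to 0.965). With each cell thinned to 5000 UMIs 3 of the 7 were higher, and with clusters weighing the same in both libraries 1 was, Cct5. The summed HSP90 genes stood at 4916 and 4706 CPM (ratio 0.957, 0.952 to 0.962) and the cytosolic HSP70 genes at 2651 and 2474 CPM (ratio 0.933, 0.927 to 0.940). Every gene compared in these 2 groups was lower in aged cells under every alternative tried, all of which took the cells of a library together. Within the 9 deep clusters this was not uniform. Hsp90aa1 was higher in aged cells in 3 of them, Hspa2 in 4, Hspa8 in 1 and Hsp90ab1 in 0.

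Mitochondrial chaperones went the other way, with 7 of 8 genes higher and sums of 2249 and 2320 CPM (ratio 1.03, 1.024 to 1.04). Under the TMM and median-of-ratios scalings 6 of 8 were higher. Hspa9 led the group, from 308 to 343 CPM (ratio 1.11, 1.09 to 1.14). It was higher in the aged library in all 9 deep clusters, most in the stress response-like cluster 3 (336 against 439 CPM) and least in cluster 6 (347 against 361 CPM). The integrated stress response markers of cluster 3 summed to 2358 CPM in the young and 3168 CPM in the aged library, and their part in the Hspa9 difference was not tested. Hspd1 was level at 881 and 882 CPM.

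The class A, B and C groups leave out the J-proteins counted in the ER and mitochondrial groups. By name Dnajb9 and Dnajb11 would be class B and Dnaja3 class A. Of these Dnajb11 was lower in the aged library (ratio 0.939, 0.909 to 0.971). Dnajb9 (1.08, 0.977 to 1.20) and Dnaja3 (1.10, 1.03 to 1.17) were higher. All 7 genes compared in the class B group were higher in the aged library (6 of 7 under TMM and median-of-ratios scaling, where Dnajb6 was lower, and 6 of 7 with looser mitochondrial limits or thinned cells). Dnajb2, a J-protein that binds ubiquitin, had 11.3 and 13.6 CPM (ratio 1.20, 1.08 to 1.33) and was higher in all 9 deep clusters. Dnajb4 had 14.2 and 17.1 CPM (ratio 1.20, 1.10 to 1.32). Class A genes were slightly lower, with a summed ratio of 0.974 (0.962 to 0.986), and class C genes were divided, 5 higher and 8 lower. Within class C, Dnajc9 was lower in the aged library in all 9 deep clusters (195 and 178 CPM over all cells, ratio 0.909, 0.885 to 0.933), and Dnajc8, a protein of the splicing machinery, was higher in all 9 (140.1 and 156 CPM, ratio 1.11, 1.08 to 1.15).

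In the ER group 5 of 8 genes were higher, and the sums were 1503 and 1530 CPM (ratio 1.018, 1.01 to 1.03), a direction that TMM scaling turned to -0.003 on the log2 scale. The ATPases Hsp90b1, Hspa5 and Hspa13 were higher, Hspa5 with a ratio of 1.04 (1.03 to 1.06). Of the 5 J-proteins Dnajb11, Dnajc3 and Dnajc10 were lower, Dnajc3 (p58IPK) with a ratio of 0.912 (0.879 to 0.947), and Dnajc1 and Dnajb9 higher. HSP110 genes were mixed, with Hsph1 lower (ratio 0.902, 0.869 to 0.936) and Hspa4l, a close relative, higher (54.9 and 63.5 CPM, ratio 1.16, 1.10 to 1.21). Hspb11, which carries a heat shock protein name and is known as a part of the ciliary transport machinery, was higher at 54.5 and 63.8 CPM (ratio 1.17, 1.12 to 1.23) and was so in all 9 deep clusters.

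The other members had small differences or low counts. Among mitochondrial J-proteins Dnajc19 and Dnajc15, relatives of the import motor, had 122 and 127 CPM and 80.7 and 80.3 CPM, and Dnaja3, a partner of Hspa9, had 32.0 and 35.1 CPM. Dnajc11 and Dnajc30 were at 42.4 and 43.6 CPM and at 25.3 and 25.9 CPM. In class C, Dnajc7 had 153.5 and 145 CPM, and Dnajc5, the cysteine string protein of vesicles, had 63.5 and 70.02 CPM and was higher in aged cells in all 9 deep clusters. Dnajc24, of diphthamide synthesis, Dnajc13 and Dnajc21 lay between 40.7 and 56.0 CPM, and Dnajc14, Dnajc18, Dnajc25, Dnajc4 and Dnajc17 between 16.5 and 26.6 CPM. Of class B, Dnajb6, a suppressor of protein aggregation, had 151 and 153 CPM, Dnajb14 had 46.4 and 50.02 CPM and Dnajb12 had 25.4 and 27.6 CPM. Hspbp1, an exchange factor of HSP70, stood at 36.5 and 36.6 CPM. Under 10 CPM in both libraries were also Dnajc27, Dnajc16, Dnajc12, Dnajc28, Dnajc6 (auxilin), Dnajb3, Dnaja4, Hspbap1 and Hspa12a, with Dnajc27 the highest at 8.93 and 9.84 CPM.

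Of the members 5 were higher and 4 lower in the aged library in every deep cluster, 9.09 and 7.27%, close to the 9.30 and 7.57% of all genes compared. The clusters' shares of cells differed between libraries, for example 10.7 and 6.45% for cluster 5 and 15.8 and 20.5% for cluster 2. With clusters weighing the same in both libraries the members' median log2 ratio was 0.041 and Dnajb5 alone was 25% or more apart.

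**Figure D2:**
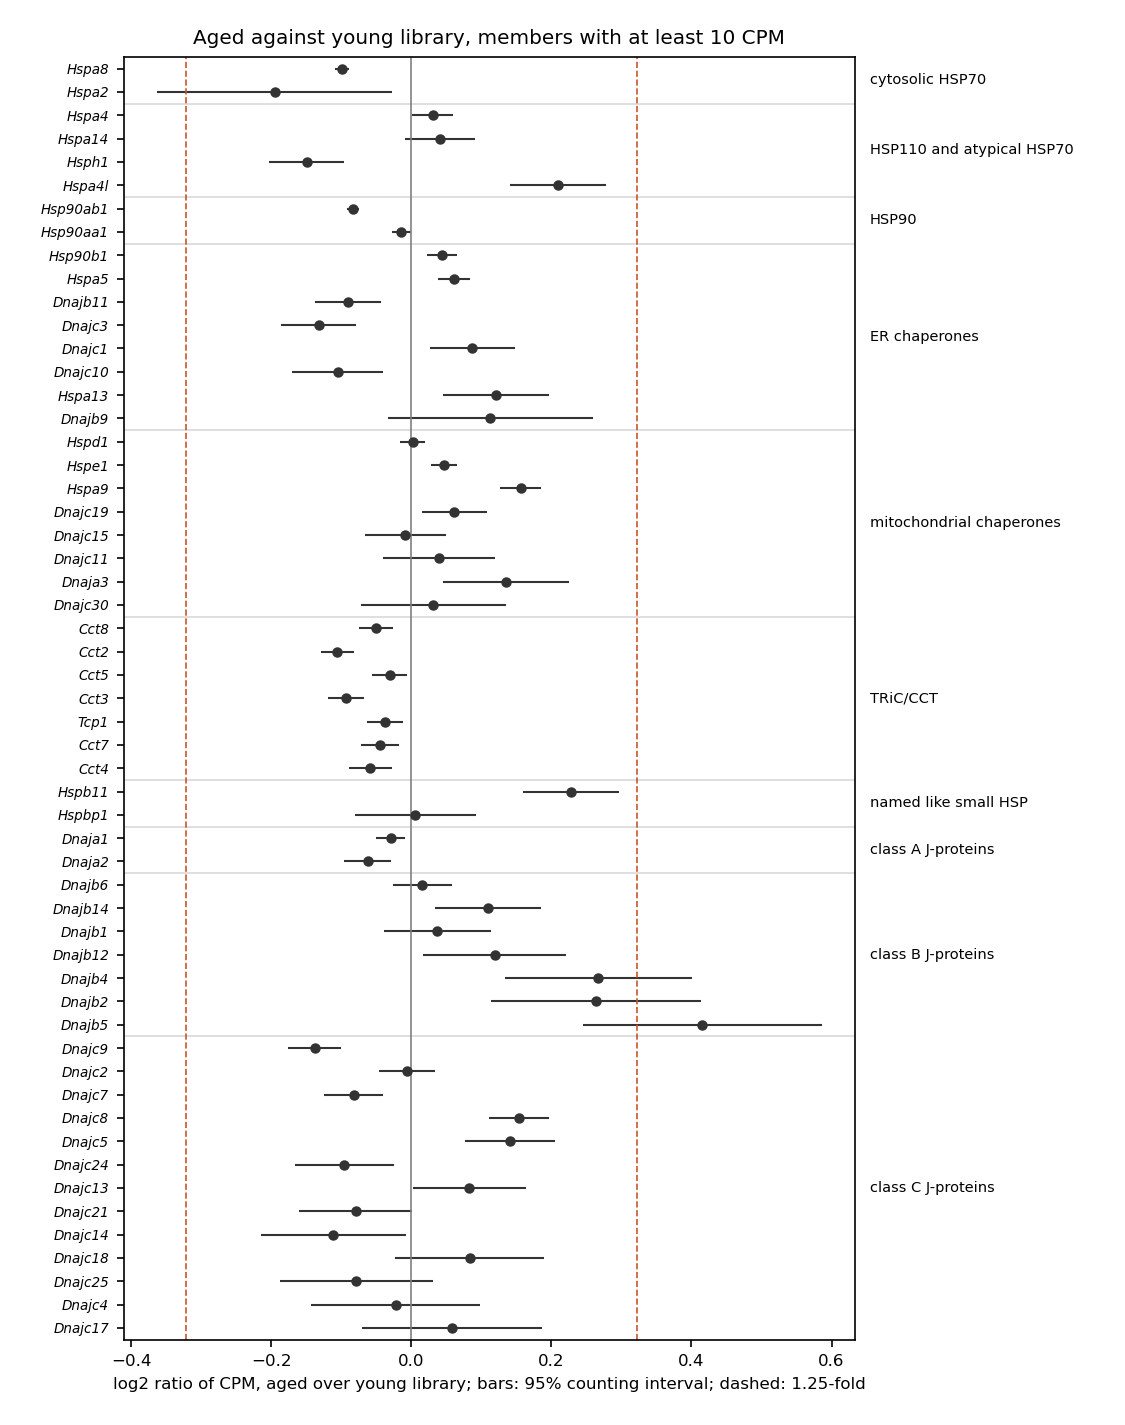
Log2 ratio of CPM, without a pseudocount, of the aged over the young library for the 55 members compared, with 95% counting intervals; dashed lines mark a ratio 25% above 1 and its inverse. Points of the TRiC/CCT genes lie left of 0 and those of the class B group, which leaves out J-proteins of the ER group, right of it. Only the point of Dnajb5 lies beyond a dashed line.

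Across cell states most members were flat. The coefficient of variation over the 9 deep clusters had a median of 12.2% in young and 11.98% in aged cells for members, against 16.7% in both for all genes with at least 10 CPM. At 50 CPM or more it was 11.4 and 11.3% for 36 members and 13.2 and 13.3% for 3425 genes. TRiC/CCT genes varied by a median of 9.79 and 8.05%. The profile of a member over the 9 clusters correlated between the libraries with a median r of 0.847, over 9 clusters that share their library's depth and processing, against 0.822 for all genes. In both libraries 2 members were at least 1.5-fold above all other cells in a deep cluster, Dnajc9 and Dnajb2, and 4 were at least 1.5-fold below, Dnajc9, Hspa14, Dnajb1 and Dnajb2. These are 3.64 and 7.27% of the 55 members, against 14.7 and 20.1% of all genes compared. All genes include variable genes that built the clusters, while the members were kept out of that step. Members could look flatter than all genes for that reason, in these shares and in the coefficients of variation. With clusters built with the member genes, Hspa4l and Hspa9 joined the members above, and the members below were the same. The shares of all genes were then 16.9% above and 20.7% below. How much leaving the members out of the clustering changes their flatness was not tested further.

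Dnajc9 had the widest range. In the mid S phase-like cluster 1 it stood at 276 CPM in young and 256 CPM in aged cells, against 175 and 155 CPM in all other cells. In the stress response-like cluster 3 it had 81.7 and 66.8 CPM, and in cluster 7, with its astrocyte or quiescent stem cell markers, it had 94.7 and 83.9 CPM, which is 2.51- and 2.84-fold below the other cells in cluster 3 and 2.13- and 2.18-fold below in cluster 7. The other clusters lay between 163 and 216 CPM. Clusters 3 and 7 were also those with the lowest summed mid S phase and G2/M markers: the 30 G2/M markers summed to 465 and 411 CPM in cluster 3 and to 827 and 762 CPM in cluster 7, against 14965 and 15033 CPM in cluster 4. The part of the cell cycle in the Dnajc9 levels was not tested.

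Hspa14, an HSP70-like protein of the ribosome-associated chaperone pair, was low in the same clusters, with 61.5 and 75.8 CPM in cluster 3 and 64.9 and 73.5 CPM in cluster 7. Elsewhere it lay between 91.7 CPM (cluster 2) and 138 CPM (cluster 6) in the young library and between 95.3 CPM (cluster 2) and 132 CPM (cluster 1) in the aged. Dnajc2, its partner on the ribosome, was flatter and also lowest there, with 142 and 145 CPM in cluster 3 and 142 and 147 CPM in cluster 7, against 154 to 196 CPM in the other deep clusters of the young library and 160.1 to 188 CPM in those of the aged.

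Dnajb2 ran the other way. It was highest in cluster 7, with 17.1 CPM in the young and 22.6 CPM in the aged library, and in cluster 3, with 17.0 and 21.3 CPM, and lowest in cluster 1, with 6.91 and 8.20 CPM. Against the other cells this was 1.53- and 1.69-fold in cluster 7, 1.54- and 1.64-fold in cluster 3 and 1.70- and 1.75-fold below in cluster 1. Its counts per cluster are small, and its clusters' intervals overlap between neighbours in the order.

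Dnajb1 was lowest in cluster 3, with 27.8 and 29.2 CPM, and highest in the G2/M-like cluster 4, with 57.0 and 64.3 CPM. Hspa4l, of the HSP110 type, was highest in the G2/M-like cluster 9 (79.3 and 103 CPM) and was also above the other cells in the G2/M-like clusters 4 (67.6 and 90.3 CPM) and 8 (72.9 and 86.3 CPM). Its lowest cluster was 2 in the young library (40.6 CPM) and 3 in the aged (39.2 CPM). Hspa2, an HSP70 known from the testis, had 17.8 CPM in cluster 4 of the young library and 10.4 CPM there in the aged, so its high level in that cluster was not seen in both.

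Among deep clusters the ER chaperones were highest in cluster 7, where the 8 genes summed to 1819 CPM in the young and 1807 CPM in the aged library, against 1479 and 1512 CPM in all other cells. Hspa5 carried this, with 679 and 719 CPM in cluster 7. Its lowest deep cluster was 4, with 331 and 373 CPM. Dnajb9, a J-protein partner of BiP, was at 19.8 and 19.2 CPM in cluster 7 and at 8.62 and 8.30 CPM in cluster 4. Hsp90b1 did not share that order: in the G2/M-like cluster 8 it had 702 and 821 CPM, level with cluster 5 (700.3 CPM) in the young library and the highest in the aged, and it had 667 and 690 CPM in cluster 4. Dnajc1 and Dnajc10 were highest in the G2/M-like cluster 9, at 92.6 and 104 CPM and at 91.9 and 86.1 CPM. In the young library Dnajc1 was lowest in cluster 8 (58.1 CPM), also G2/M-like. Cluster 8 had 19 of the 30 G2/M markers raised, against 30 in clusters 4 and 9. Of the list that named cluster 7 it had 0 genes raised, against 5 in cluster 9. It also had the lowest median depth of the deep clusters (16456 young and 19272 aged UMIs). The part of these differences in the Dnajc1 levels was not tested.

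The summed mitochondrial chaperones, the summed TRiC/CCT genes and Hsp90ab1 were, among the deep clusters, highest in the unnamed cluster 5. Hspd1 had 1081 and 1085 CPM in cluster 5 and 696 and 760.4 CPM in cluster 4, its lowest, and Hspe1 had 865 and 908 CPM against 666 and 682 CPM. Hsp90ab1 had 4129 and 3871 CPM in cluster 5 and 3004 and 2904 CPM in cluster 4. The TRiC/CCT genes summed to 3331 and 3132 CPM in cluster 5 and, in the young library, were lowest in cluster 4 at 2613 CPM. In the aged library cluster 7 was lowest at 2537 CPM. Hsp90aa1 had its lowest level in cluster 7 (1119 and 1059.8 CPM), while Hsp90ab1 there (3564 and 3277 CPM) was near that of the other cells. Hspa8 was highest in the mid S phase-like cluster 6, with 3092 and 2857 CPM, and lowest in cluster 4, with 2159 and 2072 CPM. Cluster 1, also mid S phase-like, did not share this high level. It differed from cluster 6 in the list that named cluster 7, with 0 genes raised against 5. In cluster 1 the summed cytosolic HSP70 genes, nearly all of it Hspa8, had 2643 and 2475 CPM, against 2653 and 2474 CPM in all other cells.

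**Figure D3:**
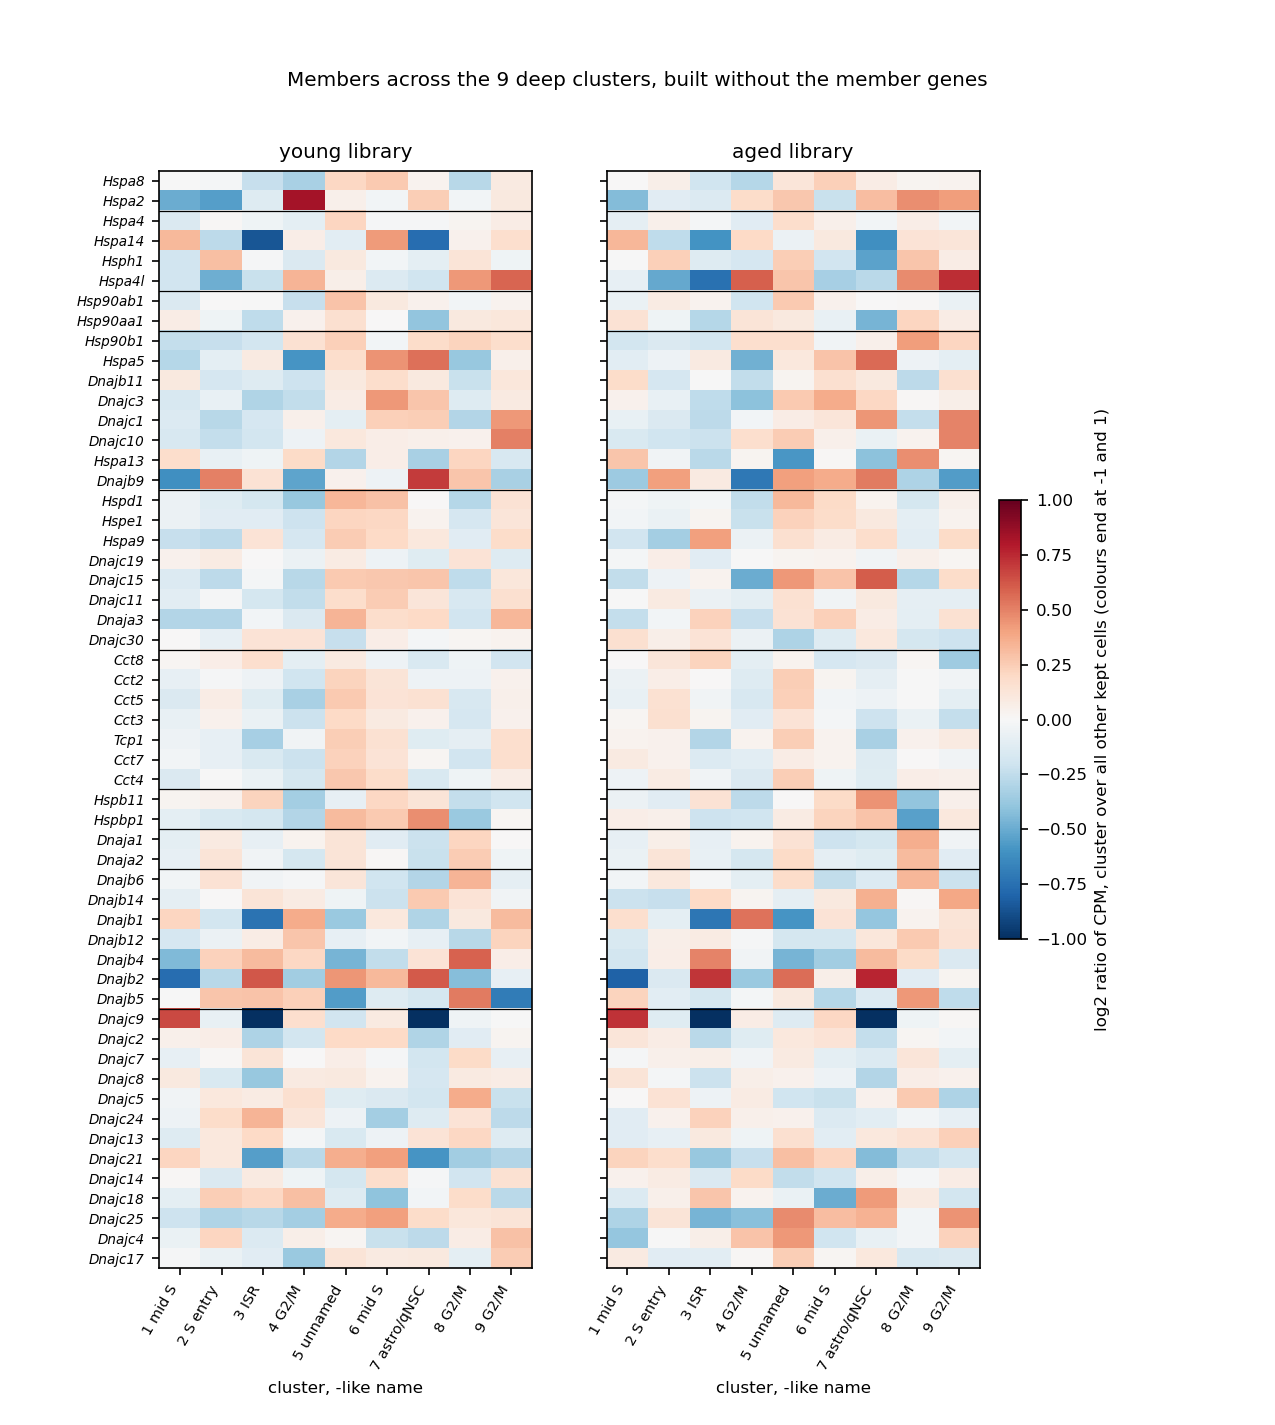
Log2 ratio of CPM in each of the 9 deep clusters over all other kept cells, for the 55 members compared, in the young (left) and aged library (right); red is higher, blue lower, and colours end at -1 and 1. Dnajc9 is deep blue in clusters 3 and 7 in both libraries and red in cluster 1, Dnajb2 shows the reverse, and the TRiC/CCT rows are pale throughout.

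**Figure D4:**
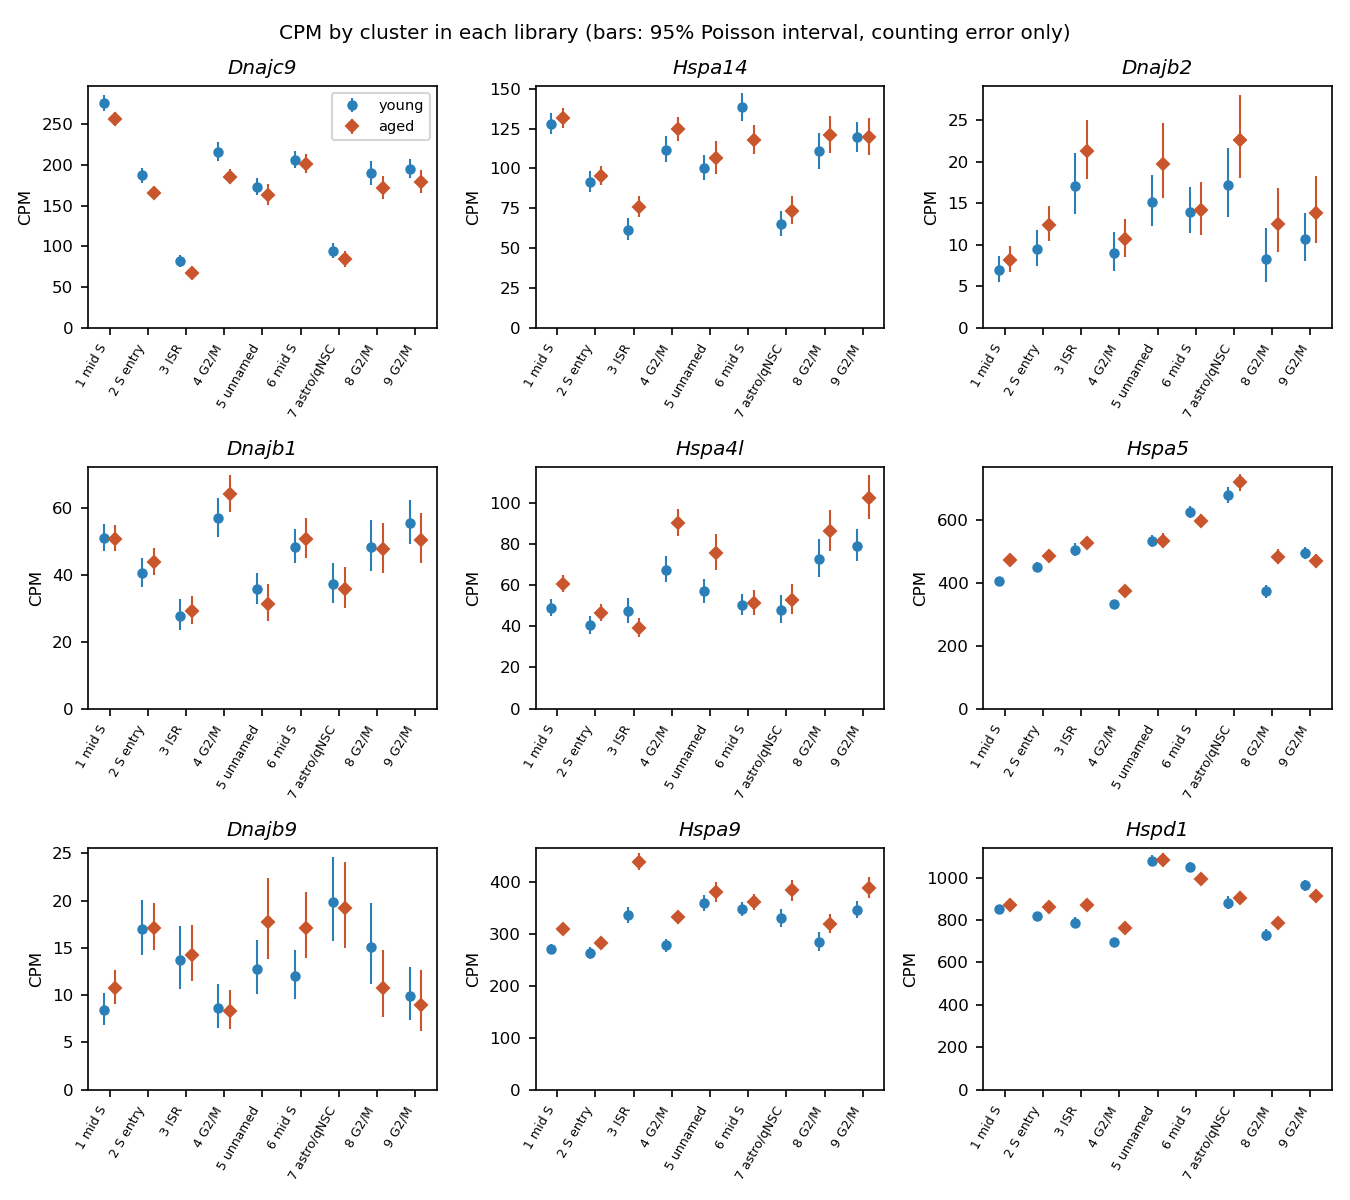
CPM of 9 members in each deep cluster of the young (circles) and aged library (diamonds), with 95% Poisson intervals and axes that start at 0. Dnajc9 and Hspa14 drop in clusters 3 and 7, Hspa5 peaks in cluster 7 at 679 and 719 CPM, and the aged point of Hspa9 in cluster 3 stands at 439 CPM.

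The 2 shallow clusters, left out of those counts, had medians of 2162 and 2142 UMIs (cluster 10) and 3230 and 3640 UMIs (cluster 11). In cluster 11 Hspa5 had 237 and 223 CPM, Hsp90b1 266 and 254 CPM and Hspa13, an HSP70 of the ER, 16.0 and 11.4 CPM, all at least 1.5-fold below the other cells, as were Dnajc3 and Dnajc21, while the summed TRiC/CCT genes had 3526 and 3581 CPM. In cluster 10, 7 members were at least 1.5-fold above, among them Hspd1 with 1378 and 1665 CPM and Hspa9 with 548 and 620 CPM. These shares of members, 9.09% below in cluster 11 and 12.7% above in cluster 10, stand beside 21.2 and 10.9% of all genes. The part of low depth in them was not tested.

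Across single cells of the deep clusters (2448 young and 2353 aged), correlations were taken between the 26 members with at least 100 CPM over both libraries, on log-normalised values. The points share their library and a normalisation to each cell's depth. Over all 325 pairs the median r was 0.097 in young and 0.076 in aged cells. The 39 pairs within a role group had medians of 0.178 and 0.163, and the 286 pairs across groups 0.091 and 0.070. The highest pair was Hsp90ab1 with Hspd1 (0.372 and 0.355), followed in the young library by Hspd1 with Hspe1 (0.334 and 0.256) and Hspd1 with Hspa9 (0.307 and 0.281). The 21 TRiC/CCT pairs had medians of 0.205 and 0.172, or 0.183 and 0.160 after each cluster's mean was taken off. Dnajc9 with Hspa14 had 0.241 and 0.187, and 0.107 and 0.050 after the cluster means were taken off. Most of these values are weak, and none is read as more than a description.

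**Figure D5:**
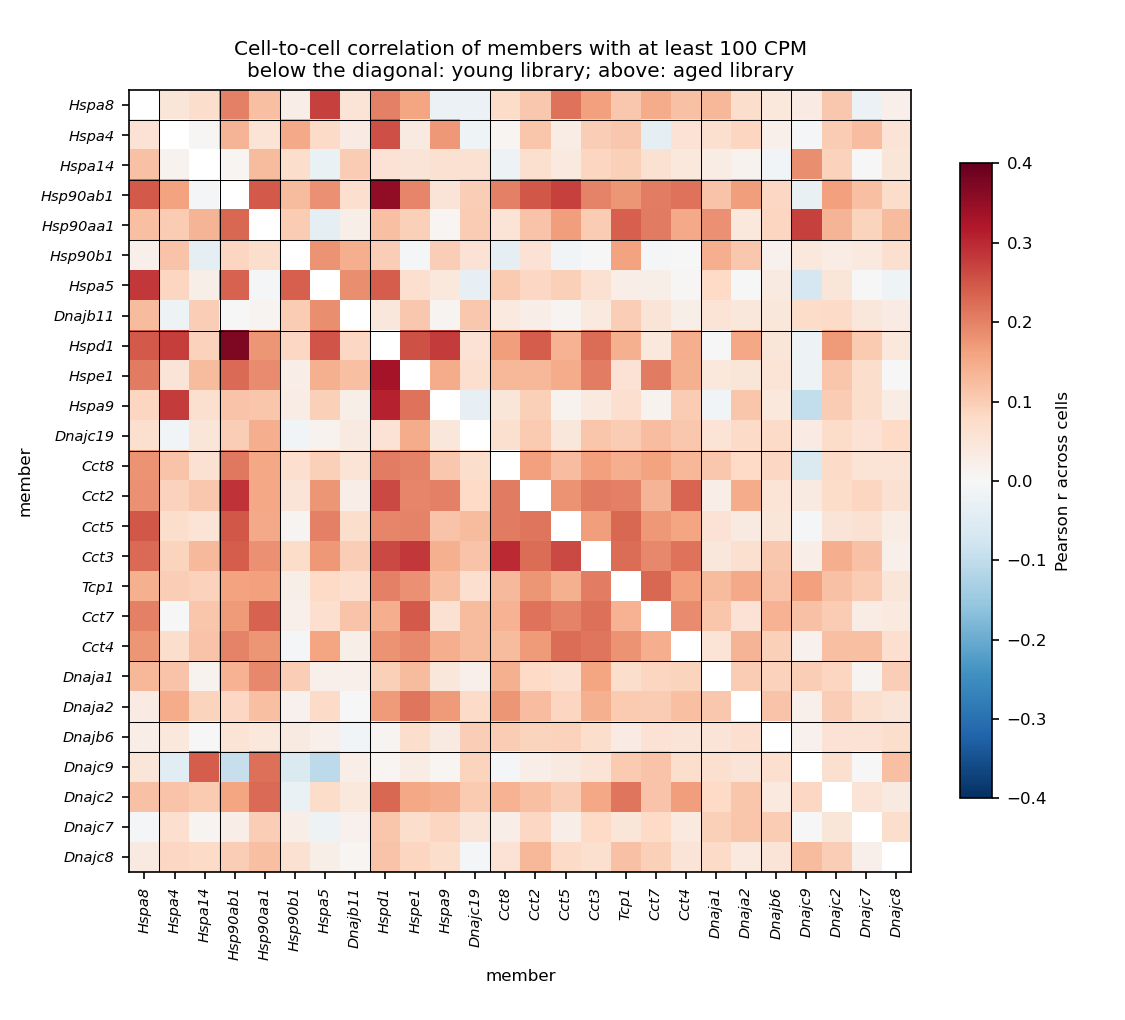
Pearson r across cells between the 26 members with at least 100 CPM, the young library below the diagonal and the aged above it, with lines between role groups. Hspd1 with Hsp90ab1, Hspe1 and Hspa9 is among the darkest red, up to 0.372, the TRiC/CCT block is red throughout (0.123 to 0.297), and Hspa5 with Dnajc9 is pale blue (-0.106 and -0.068).

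Genes that work with the members were counted from lists of the chaperone network. Of the 22 HSP70 and HSP90 cochaperones compared, 2 were at least 20% lower in aged cells and none was 25% higher, with a median log2 ratio of -0.01. They were Bag3, which links HSP70 to selective autophagy, with 12.3 CPM in the young and 8.06 CPM in the aged library (ratio 0.654, 0.582 to 0.735), and Bag2, an inhibitor of the ubiquitin ligase Stub1, with 18.0 and 13.4 CPM (ratio 0.744, 0.678 to 0.816). Within clusters Bag3 was nearly level in cluster 3 (9.40 and 8.98 CPM), cluster 5 (19.4 and 19.0 CPM) and cluster 7 (18.9 and 19.7 CPM) and lower in aged cells in the other deep clusters. It was at least 1.5-fold above the other cells in clusters 5, 7 and 9, each a smaller share of the aged cells, and the part of those shares in its ratio was not tested. None of the 10 genes on the prefoldin list was at least 25% higher or 20% lower (median -0.02). Prefoldin hands unfolded proteins to TRiC, but the list also holds Uri1, Pdrg1, Pdcl and Pdcl3, which are not subunits of that complex. Nor was any of the 12 genes of mitochondrial folding and proteolysis (median 0.03) or the 3 HSF regulators compared (median 0.12) that far apart. Of 19 genes of ER folding and the unfolded protein response 1 was higher, Sil1, the exchange factor of BiP, with 10.6 and 15.9 CPM (ratio 1.49, 1.35 to 1.66), and the median was 0.06. Serpinh1, the collagen chaperone HSP47, had 173 and 137 CPM (ratio 0.795, 0.772 to 0.818). It was at least 1.5-fold above the other cells in clusters 5, 6, 7 and 9, each a smaller share of the aged cells, and within clusters it ran from higher in aged cells in cluster 3 (142 and 172 CPM) to lower in cluster 9 (282 and 204 CPM). The part of the cluster shares in its ratio was not tested. Cryab, a small heat shock protein outside the naming rule, had 56.1 and 64.1 CPM and was at least 1.5-fold above the other cells in cluster 7. In the young library cluster 3 (87.4 CPM) was level with cluster 7 (86.2 CPM). Cryab was lower in aged cells in clusters 1, 2, 3, 4 and 8, for example 61.7 and 40.9 CPM in cluster 8. It was higher in clusters 5, 6, 7 and 9, for example 40.3 and 92.1 CPM in cluster 6. Immediate early genes, which dissociation can induce, moved with the libraries: 7 of 11 compared were at least 20% lower in aged cells (median -0.48), for example Fos at 42.7 and 20.1 CPM. Their part in the member ratios was not tested.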

How the data were processed

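Gene-by-cell UMI counts were deposited by the authors, made with Cell Ranger 3.0.2 on mm10 per the submitters' processing notes. Which gene models they counted against was not given in the sources used here. The members and lists were chosen with earlier results of these data known. Symbols are those of the deposited files, also for Hspa14, whose identifier carries another name in the reference table. Cells with at least 1000 genes and at most 10% mitochondrial UMIs were kept. Scrublet, in scanpy 1.11.5, called 11 and 10 barcodes doublets; they were taken out, but under 0.5% is too few for the caller to have worked, so doublets were for the most part not identified. Cells were clustered together with Leiden at resolution 1 on 2000 variable genes, 30 components and 20 neighbours, without the member genes, and named only from marker lists. UMIs were summed per library or per cluster and expressed as CPM. Log2 ratios used a pseudocount of 1 CPM, and a gene needed 10 CPM in 1 library to be compared. Intervals are exact Poisson for CPM, exact conditional binomial for ratios and Clopper-Pearson for shares of cells. They cover counting error only, not the spread between mice. Ratio calls were checked on simulated counts. Genes named were those at least 25% higher or 20% lower in aged cells, the 3 highest of each role group, those passing the 1.5-fold cell state rule, a set of well-known chaperones whatever their value and, from each network list, up to 3 with the largest ratio. All other members were named after their values were seen. Selk and Timm14 were not matched by symbol. Alternatives used TMM factors from edgeR 4.0.16, median-of-ratios factors from DESeq2 1.42.0, other cell filters, count minimums, pseudocounts, thinning to 5000 UMIs and other clusterings. Promoter windows from RefSeq were matched by symbol.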

Additional observations from a re-analysis of the deposited data

How the results depend on the processing

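No paired analysis was possible because each age is 1 library. The count of members at least 25% higher in aged cells (1) became 2 without a minimum on low values (Hspb6 added) and with each cell thinned to 5000 UMIs (Dnajb4 added), and 0 at a minimum of 50 CPM or a pseudocount of 5 CPM; the count at least 20% lower (0) became 1 with thinning (Hspa2). The members' median log2 ratio (0.005) stayed between -0.023 (TMM factors) and 0.041 (clusters weighing the same). Members at least 1.5-fold above the other cells of a deep cluster (2) were 4 with at most 20% mitochondrial UMIs (Hspa4l and Hspa9 added), 4 with clusters built with the member genes (the same additions), 4 with thinning (Dnajc10 and Hspa2 added), 3 at resolution 0.5 and at resolution 1.5 (Hspa9 added), 13 at 25% above, 0 at 2-fold, 1 at 50 CPM and 9 with the shallow clusters, a choice made after seeing the data. Members below (4), for which all alternatives were chosen after seeing the data, were 7 with at most 20% mitochondrial UMIs, 2 at resolution 0.5, 14 at 20% below, 1 at 2-fold (Dnajc9), 2 at 50 CPM and 11 with the shallow clusters; with thinning they were again 4, with Hspa2 in place of Hspa14, and at resolution 1.5 also 4, with Dnajb9 in place of Dnajb1. The cause of these shifts was not tested. Over all genes the shares above and below were 20.7 and 27.7% with the 20% limit, 16.9 and 20.7% with clusters built with the member genes, 12.5 and 16.2% at resolution 0.5, 17.3 and 22.8% at resolution 1.5, 42.1 and 47% at 25% above and 20% below, 4.45 and 8.15% at 2-fold, 11.2 and 15.3% at 50 CPM, 16.6 and 25.3% with thinning, and 25.1 and 40.7% with the shallow clusters. No called ratio changed sign; 28 of 39 named members and 9 of 11 role groups kept the sign of their ratio under every alternative, and the largest shift was that of Hspb6, to 1.05 on the log2 scale with thinning. The limit on these data is 1 library of pooled mice per age: differences between mice, preparation and library cannot be told apart from age. Hspa1a, with 38 and 30 UMIs, and Hspb1, with 26 and 31, are too shallow to compare states or ages.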
